A study of Mus musculus with 8 samples.

Results

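Transcripts of 4 genes of plasminogen activation were examined in NMuMG cells, a mouse mammary epithelial line of non-tumour origin: *Plau*, *Plat*, *Plaur* and *Serpine2*. They were taken by gene symbol from the deposited count table, where each symbol names 1 of 37310 genes. The rule itself used no measured value, but the 4 genes were chosen with earlier results of these data known. RNA was sequenced from 8 libraries, 2 biological replicates in each of 4 groups. The groups were control cells and cells in which CRISPR-Cas9 had deleted a segment from the promoter into the first exon of the long noncoding RNA gene *Lnc-Nr6a1*, each either untreated or given TGF-β1 at 10 ng/ml for 2 h. All groups were grown in medium with serum and insulin. The edited cells were expanded from single sorted cells, and the labels do not say whether both replicates of a group came from 1 clone. *Lnc-Nr6a1* itself (Gm13507) gave 3 and 14 counts in untreated control replicates, compared with 11 and 7 in untreated edited ones. TGF-β-treated replicates gave 25 and 35 counts (control) and 0 and 0 (edited). Untreated genotypes were therefore not told apart by the targeted gene, and the edited cells are called KO-labelled libraries below.

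Plasmin, a protease of broad specificity that degrades fibrin and extracellular matrix and activates latent growth factors, is made from plasminogen by either of a pair of activators. Urokinase, the product of *Plau*, acts mainly at the cell surface, where it is held by the urokinase receptor, the product of *Plaur*. Tissue plasminogen activator, the product of *Plat*, acts mainly on fibrin. Both activators are inhibited by serpins, among them protease nexin 1, the product of *Serpine2*, which is also a strong inhibitor of thrombin.

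The genes lie apart in the genome (NCBIM37, mm9, with the GENCODE vM1 annotation). *Plau* (ENSMUSG00000021822) is on the plus strand of chromosome 14, from 21655884 to 21662610, with 11 exons. *Plat* (ENSMUSG00000031538) is on the plus strand of chromosome 8, from 23868216 to 23893319, with 14 exons. *Plaur* (ENSMUSG00000046223) is on the plus strand of chromosome 7, from 25247519 to 25260892, with 7 exons. *Serpine2* (ENSMUSG00000026249) is on the minus strand of chromosome 1, from 79790772 to 79855271, with 2 transcripts. None of the 4 overlaps another annotated gene, so that counting without strand could not mix in reads of an annotated neighbour.

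RefSeq promoters were at hand for 2 of the 4 genes, *Plaur* and *Serpine2*. Whether these sequences bear on the levels of the genes was not tested. Each covers the 250 bases before the annotated start, on the strand of the gene in GRCm38.p6, and capitals mark the AP-1 motif, TGACTCA or TGAGTCA.
Plaur, chr7:24462233-24462482, plus strand: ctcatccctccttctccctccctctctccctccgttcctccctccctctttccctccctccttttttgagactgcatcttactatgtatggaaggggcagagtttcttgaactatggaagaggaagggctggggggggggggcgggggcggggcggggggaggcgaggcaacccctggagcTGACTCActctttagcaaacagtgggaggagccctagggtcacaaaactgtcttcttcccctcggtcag
Serpine2, chr1:79858666-79858915, minus strand: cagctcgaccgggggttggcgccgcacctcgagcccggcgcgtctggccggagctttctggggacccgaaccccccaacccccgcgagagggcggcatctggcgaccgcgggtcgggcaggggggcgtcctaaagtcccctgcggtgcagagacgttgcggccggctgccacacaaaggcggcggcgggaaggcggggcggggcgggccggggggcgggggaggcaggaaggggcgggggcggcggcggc
The *Plaur* promoter holds 1 AP-1 motif, at -69 to -63 from the start, and none is in that of *Serpine2*. Among 32851 mouse promoter windows of this length, 4.46% hold the motif on either strand. CAGAC, the short SMAD motif, was searched on both strands and is found in the *Serpine2* window, where the printed strand holds its reverse complement GTCTG, and not in that of *Plaur*, against 42.2% of all windows. Neither window holds the SMAD palindrome GTCTAGAC (0.167% of windows) or the E-box CAGGTG (17.2%). The GC content is 59.6% for *Plaur* and 78.8% for *Serpine2*, with a median of 52.4% over all windows. These are matches of letters in a window and say nothing of whether a factor was bound.

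Untreated libraries held 4297832 to 7871090 counted reads and treated ones 9895118 to 13574397. Raw counts are therefore not comparable across treatment without scaling. Levels are given as CPM, counts relative to library size scaled with the TMM factors of edgeR, and 3 counts corresponded to 0.238 to 0.661 CPM. This floor covers counting error only. Across libraries, the epithelial markers *Cdh1*, *Krt8*, *Krt18* and *Krt19* were abundant, with a summed level of 5872 to 10926 CPM for the list of 7, while *Epcam*, *Cldn3* and *Cldn7* were at or near 0. The summed blood, fibroblast and endothelial markers never exceeded 5.58, 4.85 and 0.847 CPM. Of the 4 genes, 3 had enough reads to be tested among the 13028 genes that passed the filter on low counts. A gene was called at a Benjamini-Hochberg adjusted p below 0.05 in edgeR's quasi-likelihood test with an absolute log2 fold change above 0.5. The p-values set each change against the spread between these cultures, estimated over all 8 libraries and moderated across genes. They need not cover differences between clones.

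*Plau*, the urokinase gene, rose 4.09-fold after TGF-β in control cells and 4.77-fold in the KO-labelled libraries. It was the 1 gene of the 4 that was called, in both comparisons. Untreated control libraries had 13.6 and 17.1 CPM (113 and 140 counts). After 2 h of TGF-β the control libraries had 75.9 and 49.7 CPM. In the KO-labelled libraries, *Plau* was at 8.82 and 15.6 CPM untreated and at 41.2 and 77.9 CPM after TGF-β. Every treated library was thus above every untreated library, and the treated libraries of the genotypes overlapped. How many of all tested genes separate by treatment in this way was not counted. The mean level went from 15.4 ± 2.45 (SD, n = 2) to 62.8 ± 18.5 (SD, n = 2) CPM in control cells, a log2 fold change of 2.03 (SE 0.36, 95% confidence interval 1.23 to 2.84, edgeR adjusted p = 0.011). In the KO-labelled libraries it went from 12.2 ± 4.76 (SD, n = 2) to 59.6 ± 25.9 (SD, n = 2) CPM, a log2 fold change of 2.25 (SE 0.37, interval 1.42 to 3.09, edgeR adjusted p = 0.00835). In all, 9.16% of tested genes were called after TGF-β in control cells and 6.82% in the KO-labelled libraries. In these bulk samples, a change in the number of cells that express a gene and a change in RNA per cell cannot be told apart. The call in control cells was lost when either untreated control library was left out (log2 fold change 1.88, adjusted p = 0.126 without replicate 1, and 2.21, adjusted p = 0.062 without replicate 2, edgeR), and that in the KO-labelled libraries without untreated replicate 1 (1.94, adjusted p = 0.0934).

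**Figure D1:**
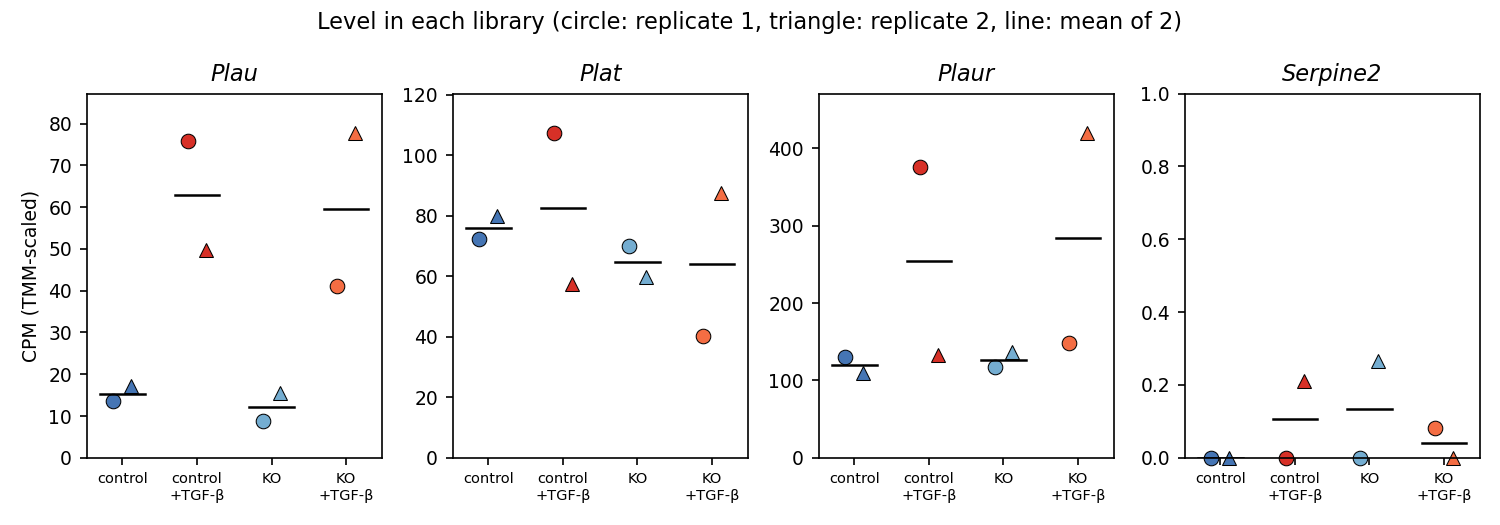
Level (CPM, TMM-scaled, y axis from 0 on a scale of its own in each panel) of the 4 genes in the 8 libraries; circles are replicate 1, triangles replicate 2 and lines the mean of 2. All treated libraries lie above all untreated ones for *Plau* (lowest treated 41.2, highest untreated 17.1 CPM), whereas *Plat* overlaps and *Serpine2* stays at or below 0.266 CPM.

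*Plat*, the gene of tissue plasminogen activator, was not called in any comparison. It was at 72.4 and 79.8 CPM in untreated control cells and at 108 and 57.6 CPM after TGF-β. The untreated KO-labelled libraries had 69.9 and 59.7 CPM and the treated ones 40.3 and 87.7 CPM. In both genotypes, 1 treated library lay above both untreated libraries and the other below. The log2 fold change after TGF-β was 0.12 (SE 0.36, 95% interval -0.68 to 0.92, edgeR adjusted p = 0.867) in control cells and -0.01 (SE 0.36, interval -0.83 to 0.80, edgeR adjusted p = 0.989) in the KO-labelled libraries. These intervals do not show that treated and untreated levels were equal. The sign in control cells turned without treated replicate 1 (-0.42), and that in the KO-labelled libraries, near 0, turned in 4 of the 8 fits that left out a library.

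*Plaur*, the gene of the urokinase receptor, was higher on average after TGF-β in both genotypes but was not called in either. Its level was 131 and 110 CPM in untreated control cells and 117 and 137 CPM in the untreated KO-labelled libraries. Treated control replicates had 376 and 133 CPM, and treated KO-labelled replicates 149 and 420 CPM. In each genotype, 1 treated library was far above the untreated ones and the other barely above them. With 2 libraries per group this separation is weak, and its share over all tested genes was not counted. The log2 fold change was 1.08 (SE 0.51, 95% interval -0.05 to 2.22, edgeR adjusted p = 0.203) in control cells and 1.16 (SE 0.51, interval 0.03 to 2.30, edgeR adjusted p = 0.211) in the KO-labelled libraries. *Plaur* was called when its lower treated library was left out, with 1.65 (edgeR adjusted p = 0.0481) without replicate 2 in control cells and 1.75 (edgeR adjusted p = 0.0438) without replicate 1 in the KO-labelled libraries, while without the higher one the values were 0.14 and 0.26. It was also called without the filter on low counts (edgeR adjusted p = 8.43e-08 and 7.35e-10).

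The receptor gene was among the genes on which treated replicates differed most. Replicate 1 exceeded replicate 2 in treated control cells 2.82-fold, and replicate 2 exceeded replicate 1 in the treated KO-labelled libraries 2.83-fold. These differences were larger than those of 96.7% and 98.6% of tested genes, for which the median absolute difference of log2 CPM was 0.33 and 0.22. In the untreated groups the *Plaur* replicates differed by 0.25 and 0.22 on the same scale. *Plau* and *Plat* leaned the same way, with replicate ratios of 1.53 and 1.87 in treated control cells and 1.89 and 2.18 in the treated KO-labelled libraries. All 3 tested genes were thus higher in replicate 1 of treated control cells and in replicate 2 of the treated KO-labelled libraries, as were 34.2% of all tested genes, and by over 0.5 on the log2 scale in both groups, as were 5.3%. Among the other genes of the plasminogen system, 11 of 23 showed this pattern, and among serpins, 1 of 13. What separates these treated libraries was not tested.

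*Serpine2*, the gene of protease nexin 1, had 5 reads in all. It had no counts in both untreated control libraries, 0 and 2 in treated control cells, 0 and 2 in the untreated KO-labelled libraries, and 1 and 0 in the treated ones. The highest level was 0.266 CPM, and 5 of the 8 libraries were at 0, which allows up to 0.238 to 0.661 CPM depending on depth. No library thus had more than the 3 counts of the floor, no group stands apart, and the gene was neither tested nor given a fold change. A difference between groups was not detectable at this depth.

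**Figure D2:**
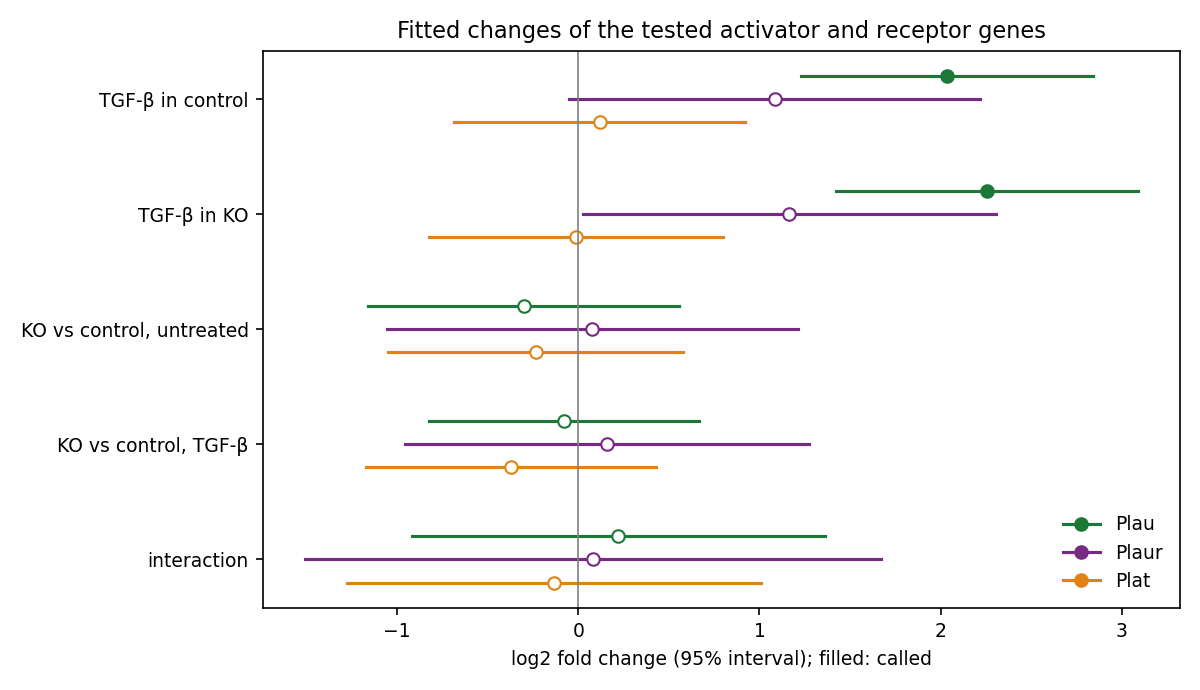
Log2 fold change (x axis) with its 95% interval from edgeR for *Plau*, *Plaur* and *Plat* in the 5 comparisons (y axis), filled where called. *Plau* (2.03 and 2.25) is filled in both TGF-β comparisons, and every interval spans 0 between genotypes and in the interaction.

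The comparison of genotypes set KO-labelled against control libraries before and after TGF-β. In untreated libraries it cannot be read as a test of loss of *Lnc-Nr6a1*, whose counts did not tell the genotypes apart. None of the 3 tested genes was called in either state, against 1.83% of all tested genes in untreated cells and 15.0% after TGF-β. In untreated KO-labelled libraries, the log2 fold change against control was -0.30 for *Plau* (SE 0.38, 95% interval -1.16 to 0.56, edgeR adjusted p = 0.77) and 0.08 for *Plaur* (SE 0.50, interval -1.05 to 1.21, edgeR adjusted p = 0.964). For *Plat* it was -0.24 (SE 0.36, interval -1.05 to 0.58, edgeR adjusted p = 0.812), and both KO-labelled libraries were below both control libraries. The share of all tested genes with such a separation was not counted. *Plau* and *Plaur* overlapped between the genotypes. After TGF-β the values were -0.08 for *Plau* (interval -0.82 to 0.67, edgeR adjusted p = 0.9), 0.16 for *Plaur* (interval -0.95 to 1.27, edgeR adjusted p = 0.86) and -0.37 for *Plat* (interval -1.17 to 0.43, edgeR adjusted p = 0.52), all with overlapping libraries. The intervals are wide, so that for *Plaur* a change near 2-fold is within them in both directions.

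The interaction asked whether the response to TGF-β differed between genotypes. It was 0.22 for *Plau* (SE 0.51, 95% interval -0.91 to 1.36, edgeR adjusted p = 0.939), 0.08 for *Plaur* (SE 0.71, interval -1.51 to 1.67, edgeR adjusted p = 0.988) and -0.13 for *Plat* (SE 0.51, interval -1.27 to 1.01, edgeR adjusted p = 0.97). edgeR called 0% of all tested genes, with 1134 at an unadjusted p below 0.05, limma-voom called 0 and DESeq2 31. None of the 3 was called by any of these tools, and the intervals allow responses that differ by more than 2-fold for each of the 3 genes.

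Levels of different genes were compared per kilobase of exon. In untreated control cells *Plaur* came first with 86.1 ± 10.5 (SD, n = 2) CPM per kb, followed by *Plat* with 30.1 ± 2.08 and *Plau* with 6.56 ± 1.04. The libraries of these 3 genes did not overlap, while *Serpine2* had no reads. The untreated KO-labelled libraries had the same order, with 90.8 ± 9.84, 25.6 ± 2.85 and 5.20 ± 2.03 CPM per kb. In treated control cells the order was *Plaur* with 183 ± 123 CPM per kb, *Plat* with 32.6 ± 14.0 and *Plau* with 26.8 ± 7.90, and the last pair overlapped. The treated KO-labelled libraries had *Plaur* at 204 ± 138 CPM per kb, above *Plau* and *Plat* at 25.4 ± 11.1 and 25.3 ± 13.3, which overlapped.

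Within a library, ratios of these levels do not depend on its scaling. They were chosen after the values had been seen and are given without a test. Reads per kb of *Plau* relative to *Plat* were 0.203 and 0.231 in untreated control cells and 0.762 and 0.933 after TGF-β. In the KO-labelled libraries this ratio was 0.136 and 0.281 untreated and 1.11 and 0.959 treated. The urokinase transcript thus went from a minor share beside that of tissue plasminogen activator to near parity, by 4.52-fold over both genotypes. The replicates of the treated groups were closer in this ratio than in either level.

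Relative to urokinase, the receptor transcript was lower after TGF-β. Reads per kb of *Plaur* over those of *Plau* were 16.1 and 10.8 in untreated and 8.32 and 4.50 in treated control cells. They were 22.3 and 14.7 in untreated and 6.05 and 9.06 in treated KO-labelled libraries. Every treated library had a lower ratio than every untreated library, on average 2.29-fold.

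**Figure D3:**
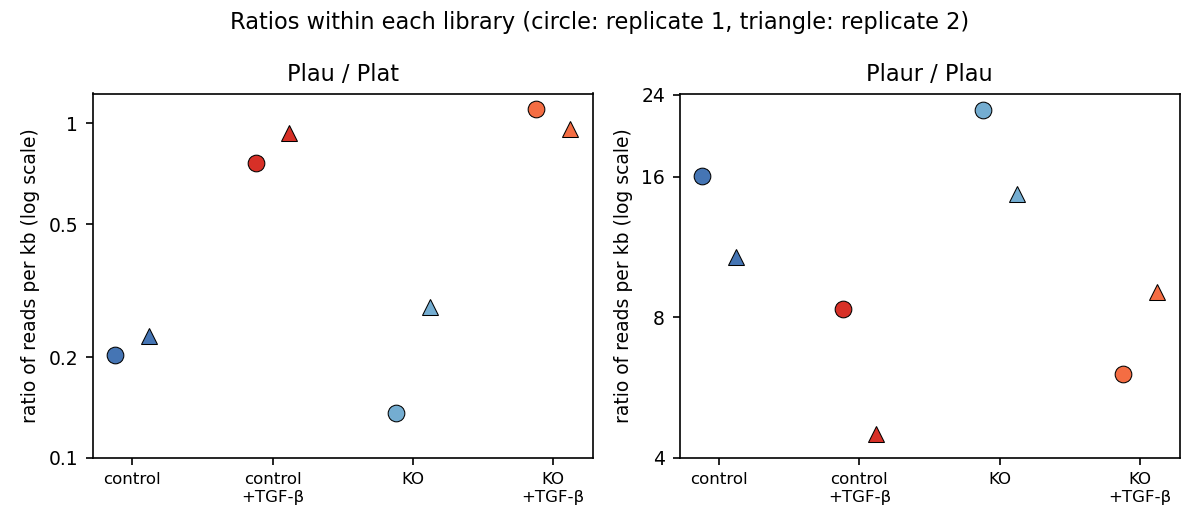
Ratios of reads per kb (y axis, log scale) within each of the 8 libraries, for *Plau* over *Plat* and *Plaur* over *Plau*; circles are replicate 1 and triangles replicate 2. Treated libraries lie above untreated ones in the first panel (0.762 to 1.11 against 0.136 to 0.281) and below them in the other (4.50 to 9.06 against 10.8 to 22.3).

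Genes whose log2 CPM followed each of the 3 tested genes most closely were sought over the 8 libraries, as a description. For *Plau* they were *Rnf19a* (Pearson's r = 0.997), *Marcksl1* (0.994) and *Gm1826* (0.991). *Marcksl1*, of the MARCKS family of actin-binding proteins, was at 17.1 to 22.1 CPM in untreated and 47.9 to 84.8 CPM in treated control cells, and at 9.92 to 16.9 and 46.1 to 73.2 CPM in the KO-labelled libraries. For *Plaur* they were *Maff* (0.994), *Relb* (0.990) and *Eif6* (0.985). *Maff*, a small MAF transcription factor, had 114 and 19.4 CPM in the treated control libraries and 20.4 and 113 CPM in the treated KO-labelled libraries, so that, as with *Plaur*, 1 treated library of each genotype was near the untreated ones, which had 15.9 to 21.7 CPM. For *Plat* the closest were *Lmnb1* (0.951), *Wdr74* (0.941) and *Pak6* (0.941). Between the genes themselves, r was 0.797 for *Plau* with *Plaur*, 0.195 for *Plau* with *Plat* and 0.575 for *Plaur* with *Plat*. All these points share the treatment groups and the library-wide scaling.

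Of the serpin family, to which *Serpine2* belongs, 66 genes were examined, of which 37 had any count and 13 were tested. After TGF-β, 3 of them rose in control cells and 1 in the KO-labelled libraries, and none fell, against 9.16% and 6.82% of all tested genes called. The medians were 0.58 and 0.84 on the log2 scale, beside 0.016 and 0 over all genes tested. Those called in control cells were *Serpinb9b* by 1.44 (SE 0.26, edgeR adjusted p = 0.0123), *Serpinb6b* by 1.17 (SE 0.26, edgeR adjusted p = 0.0273) and *Serpinb9* by 1.03 (SE 0.23, edgeR adjusted p = 0.0274), intracellular serpins with near copies in a cluster, whose reads may have been split in counting. Their log2 fold changes in the KO-labelled libraries were 0.85, 0.96 and 0.89 (edgeR adjusted p = 0.0948, 0.0629 and 0.0538). In the same order, they were 0.53, 0.67 and 0.67 without untreated replicate 1, and 1.36, 1.37 and 1.19 without untreated replicate 2. *Serpinh1*, the collagen chaperone HSP47, rose by 0.91 in the KO-labelled libraries (SE 0.18, edgeR adjusted p = 0.0187), beside 0.46 in control cells (edgeR adjusted p = 0.133). That control value was 0.26 without untreated control replicate 1 and 0.70 without untreated control replicate 2. The interaction was called for none of these 4 genes (edgeR adjusted p from 0.649 to 0.939). *Serpinb2*, the gene of plasminogen activator inhibitor 2, had no counts in 6 libraries, 2 in treated control replicate 1 and 25 in treated KO-labelled replicate 2, the libraries in which *Plaur* was higher in each genotype, and was not tested.

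Between genotypes, 1 serpin was called in untreated cells and 4 after TGF-β, against 1.83% and 15.0% of all tested genes. These counts include *Serpina1b* and *Serpina1a*, which were tested only because of their control counts, and are not to be weighed against those shares. *Serpina1b*, of the α1-antitrypsin genes, had 31 and 33 counts in untreated control cells and none in the untreated KO-labelled libraries, which is at least 7.33-fold lower (edgeR adjusted p = 0.0103). After TGF-β it had 41 and 29 counts in control cells against 3 and 2, and *Serpina1a* had 14 and 10 against 1 and 0, at least 14.3-fold and 4.91-fold lower (edgeR adjusted p = 0.00489 and 0.0324). These bounds are against 3 counts per library, and the copies of this gene share sequence. Both genes passed the filter on low counts only through control libraries, where they were high. Their calls are therefore no independent support for a difference. *Serpinb9b* was lower by -0.89 (SE 0.25, edgeR adjusted p = 0.0419) and *Serpinb5*, the gene of maspin, higher by 1.15 (SE 0.30, edgeR adjusted p = 0.0325) in the treated KO-labelled libraries. Of the 8 fits that left out a library, 6 lost the treated call of *Serpina1a*, 6 that of *Serpinb9b*, 4 that of *Serpinb5* and 1 that of *Serpina1b*, whose untreated call was lost in 4. The value of *Serpinb5* was 0.65 without treated KO-labelled replicate 1 (edgeR adjusted p = 0.17).

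Of 40 other genes of the plasminogen system, chosen by role, 31 had any count and 23 were tested. Plasminogen itself (*Plg*) and vitronectin (*Vtn*), which binds the urokinase receptor, had no counts in any library. After TGF-β, 3 of the 23 rose and 2 fell in control cells, and 7 rose and 0 fell in the KO-labelled libraries (edgeR), against 9.16% and 6.82% of all tested genes called. The medians were 0.33 and 0.27, beside 0.016 and 0 over all genes tested. Of 6 tested integrin partners of the receptor, 2 rose in control cells and 5 in the KO-labelled libraries, to be read against the same shares. *Itgb5* rose by 0.95 (SE 0.14, edgeR adjusted p = 0.00429) and 0.94 (SE 0.14, edgeR adjusted p = 0.00479), and *Itgb1* by 0.72 and 0.86 (edgeR adjusted p = 0.0187 and 0.00937). *Itga5*, *Itgav* and *Itgb3* rose by 1.90, 1.08 and 0.96 in the KO-labelled libraries (edgeR adjusted p = 0.0194, 0.0111 and 0.0194), beside 1.28, 0.49 and 0.52 in control cells (edgeR adjusted p = 0.0653, 0.134 and 0.121). The control values of *Itga5* and *Itgav* were 0.69 and 0.29 without treated control replicate 1, and 1.69 and 0.65 without treated control replicate 2. That of *Itgb3* was 0.35 without untreated control replicate 1 and 0.70 without untreated control replicate 2. The interaction of these 3 was not called (edgeR adjusted p = 0.781, 0.578 and 0.674), so that a difference between genotypes in the response of the integrins was not shown. Their calls in the KO-labelled libraries were each lost in 3 of the 8 fits that left out a library. In control cells, *Itga5* was called in 3 of those fits, by DESeq2, without the filter on low counts and in thinned counts.

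The calls after TGF-β among serpins and plasminogen system genes changed with single libraries. In control cells, 8 genes of both lists were called in all, 0 without untreated replicate 1 and 5 without untreated replicate 2. For the KO-labelled libraries 8 were called, 0 without either untreated replicate, 3 without treated replicate 2 and 13 without either treated control library.

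Tissue factor (*F3*), which starts thrombin formation, rose by 2.64 (SE 0.59, edgeR adjusted p = 0.0274) and 3.27 (SE 0.62, edgeR adjusted p = 0.015). The call in control cells was lost in 5 of the 8 fits that left out a library, and that in the KO-labelled libraries without either untreated replicate. Without treated replicate 2 the value in the KO-labelled libraries was 1.80 (edgeR adjusted p = 0.019). Its treated replicates differed in the direction seen for *Plaur*, with 381 and 207 CPM in replicates 1 and 2 of control cells, against 106 and 495 CPM in the KO-labelled replicates. The thrombin receptor gene *F2r* rose by 1.38 in the KO-labelled libraries (SE 0.29, edgeR adjusted p = 0.0226), beside 0.75 in control cells (edgeR adjusted p = 0.123). The call was lost in 3 of the 8 fits that left out a library, and the value in control cells was 0.35 without treated replicate 1 and 1.05 without treated replicate 2 (edgeR adjusted p = 0.422 and 0.0443). In control cells, *Lrp1*, the endocytic receptor that clears inhibited urokinase with its receptor, fell by 1.39 on the log2 scale (SE 0.23, edgeR adjusted p = 0.00778). *Spint2*, a Kunitz inhibitor of serine proteases, fell by 1.14 there (SE 0.17, edgeR adjusted p = 0.00479). In the KO-labelled libraries the values were -0.47 (-0.18 without treated replicate 1 and -0.78 without treated replicate 2) and 0.32, neither called, and the interaction of neither passed (edgeR adjusted p = 0.497 and 0.322).

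**Figure D4:**
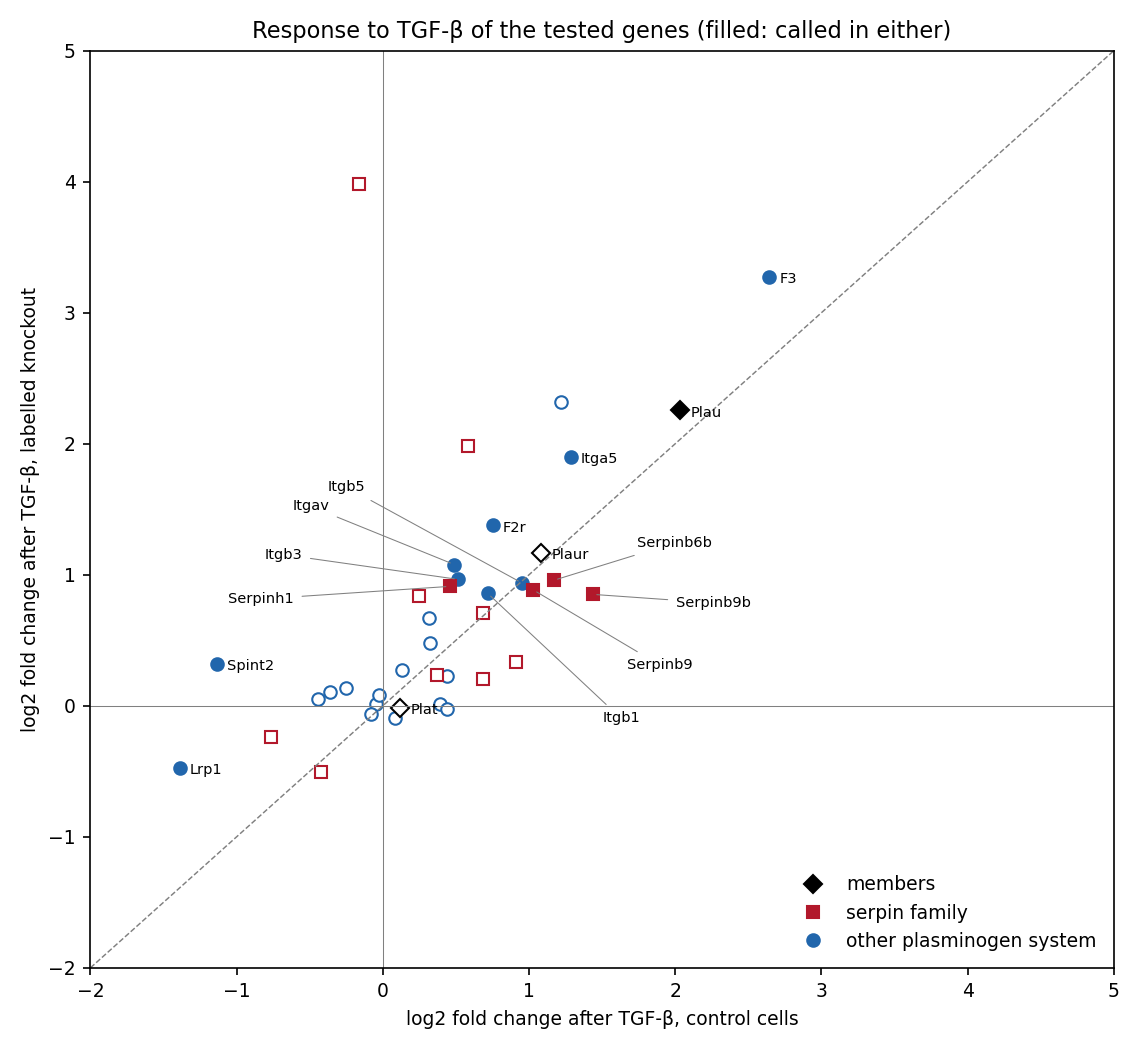
Log2 fold change after TGF-β in control cells (x axis) against that in the KO-labelled libraries (y axis) for tested genes, with the 3 tested genes as diamonds, serpins as squares and other plasminogen system genes as circles, filled where called in either comparison; the dashed line marks equality. *F3* (2.64 and 3.27) and *Plau* (2.03 and 2.25) lie farthest up the line, *Plat* sits near the origin, and the open square near 4 on the y axis is *Serpina1b*, whose fitted value rests on 0 counts before and 3 and 2 after TGF-β.

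Between genotypes, 1 of these 23 genes was called in untreated cells and 7 after TGF-β, which is 4.35% and 30.4% of them, beside 1.83% and 15.0% of all tested genes. *Itgb5* was higher in the KO-labelled libraries in both states, by 0.69 (SE 0.14, edgeR adjusted p = 0.0423) and 0.67 (SE 0.13, edgeR adjusted p = 0.0129). The untreated call was lost in 6 of the 8 fits that left out a library (log2 fold change 0.64 to 0.73). After TGF-β, *Spint2* was higher by 1.66 (SE 0.17, edgeR adjusted p = 0.00091), *Lrp1* by 1.54 (SE 0.23, edgeR adjusted p = 0.0044) and *Itga3* by 0.74 (SE 0.19, edgeR adjusted p = 0.0286). The annexin A2 complex, which docks plasminogen and tissue plasminogen activator on cells, was split, with *Anxa2* higher by 0.67 (SE 0.13, edgeR adjusted p = 0.0114) and its partner *S100a10* lower by -0.71 (SE 0.14, edgeR adjusted p = 0.0108). *Tfpi*, the tissue factor pathway inhibitor, was lower by -2.10 (SE 0.52, edgeR adjusted p = 0.0265), at 11 and 11 counts against 30 and 46. It passed the filter on low counts through control libraries, so that its call is no independent support either. After TGF-β, *Spint2* and *Lrp1* stayed called whichever library was left out, whereas the calls of *Itga3* and *Tfpi* were lost in 4 of the 8 fits each, that of *S100a10* in 2, and those of *Anxa2* and *Itgb5* in 1 each. Of both lists together, 2 genes were called between untreated genotypes, 0 without any 1 of the 4 untreated libraries and 1 without either treated KO-labelled library. After TGF-β 11 were called, 5 without treated KO-labelled replicate 2, and 7 without treated KO-labelled replicate 1, treated control replicate 2 or untreated control replicate 2. The genotype comparisons share their control and treated libraries with the TGF-β comparisons, and single genes can be called in both through the same libraries.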

How the data were processed

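The 8 RNA-seq libraries came from NMuMG cells, in 4 groups of 2 biological replicates taken from the sample titles. The authors deposited raw counts of reads per gene, as whole numbers without normalization, in 1 table of 37310 genes. The paper's methods name subjunc, the mm10 and mm9 assemblies, samtools rmdup and DESeq2, whereas the submitters' processing notes name HISAT2, limma and mm10, and kit, sequencer and read layout differ as well. The counting tool and strand setting are not given in the sources used here. The gene identifiers and their order match GENCODE vM1 (NCBIM37), which gave positions and exon lengths.

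From the counts, TMM-scaled CPM and edgeR 4.0.16 quasi-likelihood tests (R 4.3.3) were computed, with filterByExpr (13028 genes kept), a means model of the 4 groups over all 8 libraries without a block, and Benjamini-Hochberg adjustment over all tested genes. Calls needed an absolute log2 fold change above 0.5 with an adjusted p below 0.05, and for the interaction the adjusted p alone. The SE is the absolute log2 fold change divided by the square root of F. The biological coefficient of variation was 0.180. Correlations used log2 CPM with a prior count of 2. Replicates of a group differed beyond counting noise, so no library was counted as a duplicate. A floor of 3 counts and 95% intervals were used, and lower bounds are against 3 counts per library.

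Genes named are the 4 genes, the targeted gene, every called gene of the serpin family and of a fixed list of 40 other plasminogen system genes. The 3 genes most correlated with each of the 3 tested ones and the epithelial markers are named as well. *Serpinb2*, *Plg* and *Vtn*, and the ratios, were singled out after their values were seen. A gene of these lists is not reported here and is left out of their counts. The 4 genes and the lists were chosen with earlier results of these data known. Alternatives were DESeq2 1.42.0, limma-voom (limma 3.58.1), RLE factors, no filter, a mean of at least 10 counts, a replicate block, thinned counts, leaving out each library, calls without a fold change threshold, and only the 4 libraries compared. On simulated data for TGF-β in control cells, the edgeR procedure recovered 34 of 100 genes changed by 1 on the log2 scale. At 2 it recovered 89 of 100, with 13 false calls. A gene not called can therefore have changed. Promoters are RefSeq sequences (GRCm38.p6). ChIP-seq and other assays of the study were not used here.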

Additional observations from a re-analysis of the deposited data

How the results depend on the processing

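All 15 log2 fold changes of *Plau*, *Plaur* and *Plat* over the 5 comparisons kept direction and side of the threshold under DESeq2, limma-voom, RLE factors, a mean of at least 10 counts and the replicate block. *Serpine2* had too few reads to be tested.

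Without the filter on low counts, 2021 genes were called after TGF-β in control cells, 1832 in the KO-labelled libraries, 756 between untreated genotypes and 211 in the interaction, with log2 fold changes of 1.09 and 1.23 for *Plaur* after TGF-β (both called) and 0.047 for *Plat* in the KO-labelled libraries (sign turned). Fitting only the 4 libraries compared gave 470 calls after TGF-β in control cells, 804 between untreated and 410 between treated genotypes. DESeq2 gave 401 calls between untreated genotypes and 31 in the interaction. limma-voom gave 137 between untreated genotypes. In counts thinned to the smallest total, *Plat* in the KO-labelled libraries after TGF-β (0.017) and the *Plaur* interaction (-0.023) changed sign. The causes of these shifts were not tested.

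The replicate numbers were used as a block, which gave 150 calls between untreated and 1490 between treated genotypes. Deviations of same-numbered libraries correlated by 0.297 across genes in control cells with and without TGF-β, -0.0092 in the KO-labelled libraries, 0.098 between untreated and -0.47 between treated genotypes, and the numbers were not taken to pair the libraries. Exchanging the numbers of the treated KO-labelled libraries, chosen after seeing the data, gave 2809 calls between treated genotypes. The block moved no call of *Plau*, *Plaur* and *Plat*. Of 29 called values of the list genes, 26 stayed called with it, and those lost were *Itgb5* between untreated, and *Serpina1a* and *Serpinb5* between treated genotypes.

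With each library left out in turn, calls ranged from 145 to 1484 after TGF-β in control cells, 136 to 1381 in the KO-labelled libraries, 42 to 390 between untreated and 477 to 2762 between treated genotypes, and 0 to 6 in the interaction. After TGF-β in control cells, *Plau* ranged from 1.68 to 2.30, *Plaur* from 0.14 to 1.65 and *Plat* from -0.42 to 0.50. In the KO-labelled libraries, *Plau* ranged from 1.76 to 2.76, *Plaur* from 0.26 to 1.75 and *Plat* from -0.65 to 0.46. Between untreated genotypes, *Plau* ranged from -0.80 to 0.017, *Plaur* from -0.042 to 0.20, *Plat* from -0.35 to -0.13 and *Serpinb9b* from -0.81 to 0.016. Between treated genotypes, *Plau* ranged from -0.60 to 0.32, *Plaur* from -0.77 to 1.11 and *Plat* from -1.03 to 0.17. The interaction ranged from -0.27 to 0.73 for *Plau*, -0.82 to 1.06 for *Plaur* and -0.77 to 0.43 for *Plat*. The log2 ratio of *Plau* to *Plat* between genotypes ranged from -0.19 to 0.33. Calls among the list genes ranged from 0 to 9 after TGF-β in control cells (8 with all libraries), 0 to 13 in the KO-labelled libraries (8), 0 to 3 between untreated genotypes (2) and 5 to 12 between treated genotypes (11). Of their 29 called values in all, 20 stayed called when only the libraries compared were fitted.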
